A study of Mus musculus with 2 samples.

Results

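Among 8 long noncoding RNAs (lncRNAs), namely Malat1 and Neat1 of the nucleus and 6 hosts of small nucleolar RNAs (snoRNAs), read in 1 library per condition, Neat1 was 2.54-fold lower and Snhg8 was 1.78-fold lower in fibro-adipogenic progenitors labelled TGFBR3 overexpression than in those labelled control. Malat1 was 1.46-fold higher. The snoRNA host RNAs Gas5, Snhg1 and Snhg6 were between 1.18- and 1.31-fold higher, and Snhg12 stood at nearly the same level in both libraries. Snhg3 had too few counts to show a direction (fold 1.30, counting interval 0.975 to 1.725). Relative to genes of like GC content the log2 ratios of Gas5, Snhg1, Snhg3 and Snhg6 were −0.07, −0.24, −0.11 and 0.02. On the same scale Malat1 fell from 0.52 to 0.14 and Snhg12 stood at −0.20, while Neat1 and Snhg8 stayed lower, at −1.17 and −0.96. The 8 genes were taken by name, with earlier results of these data known: Malat1, Neat1, Gas5, Snhg1, Snhg3, Snhg6, Snhg8 and Snhg12, which are 8 of the 26082 genes of the deposited tables. All 8 had a mean of at least 1 FPKM (fragments counted per kilobase of exon, scaled to the size of the library), a limit that 11213 genes passed.

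Fibro-adipogenic progenitors (FAPs) are mesenchymal cells that lie between muscle fibres and can give rise to fat cells or fibroblasts. The cells were primary FAPs sorted from the hind limb muscles of mice (C57BL/6, several weeks old when bought, by the methods of the study), wild type (WT) in both groups. One culture was transfected with TGFBR3 overexpressing plasmids and the other with the vector, and both were then kept in adipogenic induction medium with IBMX, dexamethasone and insulin. The share of cells that took up the plasmid and the time in the medium are not given in the labels. TGFBR3, or betaglycan, is a co-receptor that presents TGF-β ligands to the signalling receptors. RNA was selected with oligo(dT) beads, which hold on to RNAs with a poly(A) stretch. With 1 library per condition there is no replicate check, no test and no p-value, and each interval given here is a 95% interval for counting error in these 2 libraries alone.

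Tgfbr3 itself read 36.87 FPKM from 16372 counts in the library labelled TGFBR3 overexpression, against 35.13 FPKM from 21245 counts in the library labelled control. The log2 ratio of Tgfbr3 on the FPKM + 1 scale was 0.07, so mouse Tgfbr3 was not raised in the library that carries its name, and both libraries are called by their labels throughout. The labels do not give the sequence of the plasmid insert, so this value is a check of the mouse gene alone. The deposited counts summed to 62321027 and 83779203. Of 7 FAP markers 6 passed a mean of 1 FPKM in both libraries together, while Lum did not. Ly6a was higher in the library labelled TGFBR3 overexpression, at 1013 and 706 FPKM, and so was Dcn, while 4 were lower, among them Col1a1 (467 and 870 FPKM, log2 ratio on FPKM + 1 −0.89) and Gsn (380 and 556 FPKM, −0.55), and the median of the 6 was −0.20. No marker of macrophages (7 genes) or endothelium (5 genes) passed, with summed levels of 0.73 and 0.47 FPKM for macrophages and 1.36 and 0.94 FPKM for endothelium, and the 3 listed muscle cell genes, of 6, that the tables hold reached at most 0.03 and 0.06 FPKM. The median log2 ratio over all 11213 genes was 0.14, and the ratio moved with base composition, from 0.45 for the median gene in the bin with the least GC in its exons to −0.25 in the bin with the most (20 bins). Centring on the median gene with at least 1 FPKM in each library takes 0.13 off every log2 ratio. The exons of the 8 lncRNAs held 40.7 to 47.5% GC against a median of 50.0% over all genes, so each ratio is also given relative to genes of like GC content. In bulk RNA a lower level of a transcript per cell and fewer cells that make it cannot be told apart.

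Malat1 and Neat1 are made side by side and are retained in the nucleus. Malat1 gathers in nuclear speckles, bodies rich in splicing factors, and Neat1 is the scaffold around which paraspeckles are built, bodies that hold back certain RNAs and proteins. The primary transcripts of Malat1 and of the long form of Neat1 end in an A-rich stretch that folds into a triple helix in place of a poly(A) tail, after a tRNA-like piece has been cut away. Neat1 also has a short form with an ordinary poly(A) tail, and that form does not by itself build paraspeckles. The other 6 RNAs carry snoRNAs in their introns. The snoRNAs guide the chemical modification or cleavage of ribosomal RNA, and many spliced host RNAs engage ribosomes and are then removed by nonsense-mediated decay.

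Both nuclear lncRNA genes lay on the minus strand of chromosome 19 in the GRCm38 (mm10) build, 22036 bases apart. Malat1 (ENSMUSG00000092341) spans chr19:5795690-5802672 and Neat1 (ENSMUSG00000092274) spans chr19:5824708-5845478, each with 4 annotated transcripts. The longest Malat1 transcript is 1 unspliced exon of 6983 bases and the longest Neat1 transcript is 1 exon of 20771 bases. Their 3′ stretches are printed because this A-rich end is what both RNAs share and what distinguishes them from an ordinary mRNA. The sequences come from the GENCODE M21 transcripts, 60 bases each on the minus strand, and the capitals mark the 11 letters that the end of the longest Neat1 transcript shares with the longest Malat1 transcript. The Malat1 stretch is chr19:5795982-5796041 and the Neat1 stretch is chr19:5824708-5824767.
Malat1: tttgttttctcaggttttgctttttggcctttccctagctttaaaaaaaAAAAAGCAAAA
Neat1: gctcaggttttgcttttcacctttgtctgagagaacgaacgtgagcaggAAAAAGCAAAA
A made 80% of the last 20 bases in the Malat1 stretch and 55% in that of Neat1. The annotated Neat1 transcript ends at the last letter shown, while that of Malat1 runs on for another 292 bases. The letters AAAAAGCAAAA lay in the last 60 bases of 54 of 141610 annotated mouse transcripts (0.0381%), and their reverse complement in 21 (0.0148%).

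Malat1 was the most abundant of the 8 RNAs in both libraries. It read 29.12 FPKM (13793 counts) in the library labelled TGFBR3 overexpression, against 19.99 FPKM (12899 counts) in the library labelled control. The ratio of the FPKM values was 1.46 (95% counting interval 1.42 to 1.49), or 0.52 on the log2(FPKM + 1) scale. Of all genes tested, 83.3% had a lower ratio, so Malat1 lay on the high side of the genes without being at their edge. Relative to genes of like GC content the log2 ratio of Malat1 was 0.14, which is the smallest size it took under any setting. Malat1 ranked as number 11 by mean level among the 218 lncRNA genes with a mean of at least 1 FPKM.

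Neat1 was lower in the library labelled TGFBR3 overexpression, at 1.46 FPKM (2054 counts) against 3.71 FPKM (7119 counts). That is a 2.54-fold lower level (2.42 to 2.67), with a log2 ratio of −1.35 on plain FPKM and −0.94 on the FPKM + 1 scale. The smaller size on the second scale comes from the added 1, which is large beside levels this low. Only 146 of the 11213 genes (1.30%) and 9 of the 218 lncRNA genes had a lower ratio than Neat1 on the FPKM + 1 scale. Removing the GC trend left the log2 ratio of Neat1 at −1.17, and removing the trend over exon length left it at −1.27. The level per length depends on which transcript is read, and over the 20771 bases of the merged exons Neat1 was low. If all counts came from its longest spliced transcript, of 3004 bases, its FPKM would be 10.1 and 25.6. That spliced transcript was not matched to the short form. The files give 1 value per gene, so the short and long forms were not separated. The rRNA gene with the most counts, CT010467, makes an RNA without a poly(A) tail. It took 0.250% of all counts in the library labelled TGFBR3 overexpression, against 1.15% in the other. Malat1, which also ends in an A-rich stretch in place of a poly(A) tail, went the other way. It read 29.12 FPKM in the library labelled TGFBR3 overexpression, against 19.99 FPKM in the other. Whether the oligo(dT) step held RNAs without a tail, the long form of Neat1 among them, equally in both libraries was not tested.

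The 2 neighbours therefore stood in different proportion to each other within each library. Malat1 was 19.9 times Neat1 by FPKM in the library labelled TGFBR3 overexpression and 5.39 times Neat1 in the library labelled control. This ratio compares genes inside 1 library, so the library total plays no part in it. Of the summed counts of the 8 RNAs, Neat1 made 8.86% and 24.8%, and Malat1 made 59.5% and 44.8%. Frmd8, a coding gene that lies 4224 bases from Neat1, read 32.60 and 27.32 FPKM, with a log2 ratio of 0.25 on FPKM + 1.

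**Figure D1:**
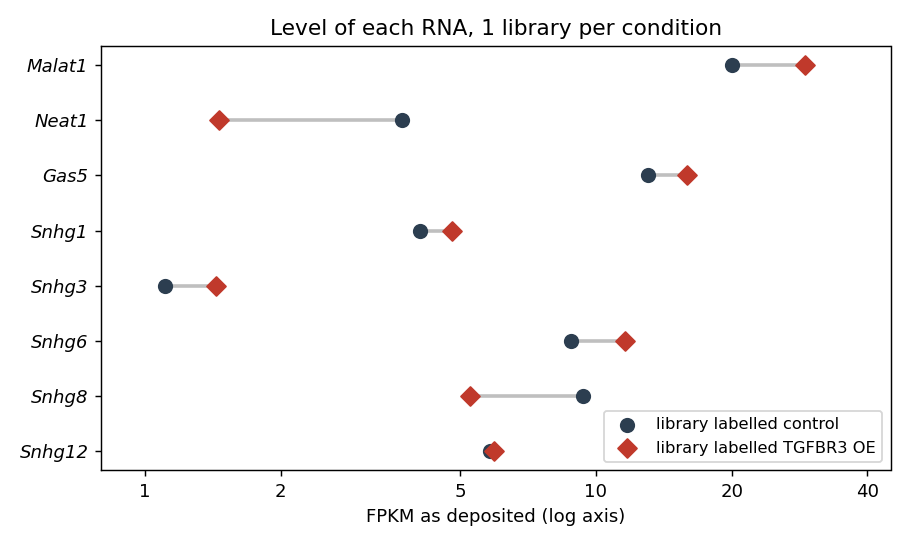
Level of each of the 8 lncRNAs as deposited FPKM (log axis), with 1 circle for the library labelled control, 1 diamond for the library labelled TGFBR3 OE (overexpression) and a grey line joining them. The diamonds of Neat1 (1.46 against 3.71) and Snhg8 (5.25 against 9.37) lie left of their circles, that of Malat1 (29.12 against 19.99) lies right, and the symbols of Snhg12 overlap.

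By level per length the order of the 8 RNAs was much the same in both libraries. Malat1 came first and Gas5 after it in each, and Snhg1, Neat1 and Snhg3 came last in that order in each. In the library labelled control Snhg8 (9.37 FPKM, 95% Poisson interval 8.71 to 10.1) and Snhg6 (8.83 FPKM, 8.27 to 9.41) could not be separated beyond counting error. In the library labelled TGFBR3 overexpression Snhg6 read 2.21 times Snhg8 by FPKM, against 0.942 times in the library labelled control. There Snhg12 (5.96 FPKM, 5.59 to 6.35), Snhg8 (5.25 FPKM, 4.68 to 5.87) and Snhg1 (4.80 FPKM, 4.50 to 5.11) each overlapped the next, and so did Neat1 (1.46 FPKM, 1.40 to 1.52) and Snhg3 (1.44 FPKM, 1.17 to 1.75). These FPKM values divide by the merged exons of all annotated transcripts. In 3 of the 6 hosts (Gas5, Snhg1 and Snhg8) these include transcripts annotated as retaining an intron. The merged exons of Snhg12 cover its whole span of 2402 bases, and those of Snhg3 overlap Snora73a. Both thus also include sequence that is intron in another transcript.

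The snoRNA host genes hold 27 gene records annotated as snoRNA, all inside an intron of at least 1 transcript of the host. Snord80 and Snora16a each have a pair of overlapping records, so the records stand at 25 separate positions. Gas5 holds 10 records, 1 of them named Mir5117, Snhg1 holds 8, Snhg12 holds 5, Snhg3 holds 2, and Snhg6 and Snhg8 hold 1 each. One named snoRNA of each host is printed to show what these introns carry. Each was picked as one in which the letters marked below were found, so their presence in the printed snoRNAs is no result. The printed sequences come from the GENCODE M21 transcripts in GRCm38 and are written 5′ to 3′ on the strand of the host. In the box C/D snoRNAs, most of which guide ribose methylation, the capitals mark box C and box D. Box C was searched in the first 22 bases as ATGATGA with the variants GTGATGA (as Snord47 has it) and ATGAAGA (as Snord22 has it). Box D was searched as CTGA starting in the last 14 bases. In the box H/ACA snoRNAs, most of which guide pseudouridine formation, the capitals mark the ACA near the 3′ end (starting in the last 10 bases). The positions are chr1:161038082-161038158 (+) for Snord47 of Gas5, chr19:8725866-8725991 (+) for Snord22 of Snhg1, chr4:132352775-132352979 (−) for Snora73a of Snhg3, chr1:9942463-9942549 (−) for Snord87 of Snhg6, chr3:123507937-123508066 (−) for Snora24 of Snhg8 and chr4:132310691-132310764 (+) for Snord99 of Snhg12.
Snord47: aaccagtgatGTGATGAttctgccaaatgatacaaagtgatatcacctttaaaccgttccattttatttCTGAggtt
Snord22: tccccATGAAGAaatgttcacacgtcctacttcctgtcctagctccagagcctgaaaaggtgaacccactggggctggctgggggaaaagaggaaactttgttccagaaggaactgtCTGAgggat
Snora73a: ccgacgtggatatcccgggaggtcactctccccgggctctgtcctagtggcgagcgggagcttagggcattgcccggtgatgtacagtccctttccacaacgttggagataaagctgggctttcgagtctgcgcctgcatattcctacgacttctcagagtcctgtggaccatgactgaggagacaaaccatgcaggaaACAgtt
Snord87: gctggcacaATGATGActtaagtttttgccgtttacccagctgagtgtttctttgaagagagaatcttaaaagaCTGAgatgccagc
Snora24: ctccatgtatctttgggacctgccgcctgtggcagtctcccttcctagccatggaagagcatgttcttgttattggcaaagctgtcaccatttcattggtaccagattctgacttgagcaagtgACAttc
Snord99: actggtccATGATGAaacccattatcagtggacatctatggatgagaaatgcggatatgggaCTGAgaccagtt
On the snoRNA's own strand, the same letters of boxes C and D were both found in 67 of 98 annotated Snord transcripts (68.4%), and the ACA in 40 of 42 Snora transcripts (95.2%). The snoRNA records held next to no counts of their own in these libraries of poly(A)-selected RNA. Of the 27 records 25 had a count of at most 1 in both libraries, and the highest value was 0.40 FPKM, for Snord87 (3 and 0 counts), followed by Snora73a (5 and 1 counts). Of the 27 records 25 lie within the merged exons of the host, so reads from a snoRNA could have been counted for its host, and the share of such reads was not tested.

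Some host genes, Gas5 the best known, begin with a run of pyrimidines at the first base of the transcript, the 5′ terminal oligopyrimidine (TOP) tract that also marks ribosomal protein mRNAs. The starts are printed because this tract is what such noncoding RNAs can have in common with mRNAs of the translation machinery. RefSeq start sites in GRCm38 were at hand for 5 of the 6 hosts and for Malat1, with 20 bases before the start and 30 from it on. Capitals mark a run of at least 5 C or T letters that begins within 5 bases of the start, read on the strand of the gene. The windows are chr1:161035146-161035195 (+) for the second of the 2 Gas5 records, chr19:8723467-8723516 (+) for Snhg1, chr4:132353657-132353706 (−) for Snhg3, chr3:123508307-123508356 (−) for Snhg8, chr4:132308658-132308707 (+) for Snhg12 and chr19:5802643-5802692 (−) for Malat1.
Gas5: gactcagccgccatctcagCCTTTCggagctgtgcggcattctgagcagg
Snhg1: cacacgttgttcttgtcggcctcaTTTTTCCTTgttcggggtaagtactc
Snhg3: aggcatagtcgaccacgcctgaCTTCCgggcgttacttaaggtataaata
Snhg8: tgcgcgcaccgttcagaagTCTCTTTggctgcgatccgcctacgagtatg
Snhg12: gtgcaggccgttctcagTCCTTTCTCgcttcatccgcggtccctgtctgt
Malat1: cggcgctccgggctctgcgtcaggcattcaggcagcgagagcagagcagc
The start base itself was a C with 4 more pyrimidines after it in the Gas5 record shown and in Snhg8, a pattern found in 2.51% of all 32851 RefSeq promoters and in 19.7% of 71 promoters of ribosomal protein genes. A run near the start, which all 5 windows shown of hosts have, and Malat1 and the other Gas5 record lack, was found in 7238 of all 32851 promoters and in 36.6% of those of ribosomal protein genes. Among 14 promoters of other snoRNA host lncRNAs, 1 had the stricter match (7.14%) and 3 had a run near the start (21.4%). A match of letters is a description of these windows. The host pair with the stricter match differed in direction on FPKM + 1, with log2 ratios of 0.27 for Gas5 and −0.73 for Snhg8. Relative to genes of like GC content both were lower, at −0.07 and −0.96.

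Gas5 (ENSMUSG00000053332, chr1:161034422-161038539, plus strand) is named for its accumulation in growth-arrested cells, and its RNA can bind the glucocorticoid receptor, the target of the dexamethasone in the medium of both cultures. It has 25 annotated transcripts, of which 20 retain an intron. Gas5 read 15.95 FPKM (4082 counts) in the library labelled TGFBR3 overexpression, against 13.03 FPKM (4538 counts) in the library labelled control. The level was 1.22-fold higher (1.17 to 1.28), with a log2 ratio of 0.27 on FPKM + 1. Relative to genes of like GC content the ratio was −0.07, so the sign of this small difference turned with that setting. Gas5 supplied 55.6% and 51.9% of the counts of the 6 hosts together, which were 7339 and 8743 counts, or 118 and 104 CPM (counts scaled to a common library size). Its spliced forms run from 346 to 665 bases against 3760 bases of merged exons, and dividing by the longest spliced form alone would put Gas5 at 90.4 and 73.8 FPKM. The outermost annotated 5′ end of Gas5 overlaps Zbtb37 on the opposite strand, which read 0.48 and 0.27 FPKM. The Gas5 start window printed above lies outside Zbtb37.

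Snhg6 (ENSMUSG00000098234, chr1:9941959-9944118, minus strand), host of Snord87, was the host with the largest difference upwards. It read 11.61 FPKM (905 counts) against 8.83 FPKM (938 counts), a 1.31-fold higher level (1.20 to 1.44). The log2 ratio of Snhg6 was 0.36 on FPKM + 1 and 0.02 relative to genes of like GC content. Mcmdc2, which overlaps it on the opposite strand, was at or below 0.01 FPKM.

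Snhg1 (ENSMUSG00000108414, chr19:8723475-8726443, plus strand), the host of Snord22 and others, read 4.80 FPKM (973 counts) against 4.08 FPKM (1127 counts). It was 1.18-fold higher (1.08 to 1.28), with a log2 ratio of 0.19 on FPKM + 1 and −0.24 once the GC trend was removed. Slc3a2, the heavy chain of amino acid transporters, starts 106 bases away on the opposite strand and read 49.47 and 31.29 FPKM, with a log2 ratio of 0.64. The gene pair that shares this start region thus had ratios of unlike size.

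Snhg3 (ENSMUSG00000085241, chr4:132348014-132353686, minus strand) hosts Snora73a and Snora73b, H/ACA RNAs known for a part in ribosomal RNA cleavage. It was the scarcest of the 8, with 1.44 FPKM (99 counts) against 1.11 FPKM (104 counts). The fold of 1.30 had an interval of 0.975 to 1.73, so its counts were too few to show a direction. Snhg3 also overlaps Rcc1, which codes for a chromatin-bound exchange factor, on the same strand, and its reads could be divided between both genes by the counting. Rcc1 read 5.73 and 5.56 FPKM (log2 ratio 0.04 on FPKM + 1), and Gm17300 on the opposite strand had 220 and 212 counts.

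Snhg12 (ENSMUSG00000086290, chr4:132308623-132311024, plus strand), host of Snord99, Snora16a, Snora44 and Snora61, read 5.96 FPKM (975 counts) against 5.82 FPKM (1296 counts). Its log2 ratio was 0.03 on FPKM + 1, with an interval of −0.07 to 0.13 for counting error alone. The sign turned under GC removal (−0.20) and under centring on the median gene (−0.10), and both values lie outside that interval. Snhg12 and Snhg3 lie in the same part of chromosome 4 with Trnau1ap, a factor of selenoprotein synthesis, between them. Trnau1ap, 739 bases from Snhg12, read 6.92 and 9.26 FPKM (−0.37).

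Snhg8 (ENSMUSG00000104960, chr3:123507552-123508404, minus strand), host of Snora24, was the one host that was lower in the library labelled TGFBR3 overexpression. It read 5.25 FPKM (305 counts) against 9.37 FPKM (740 counts), a 1.78-fold lower level (1.56 to 2.05). On the FPKM + 1 scale the log2 ratio of Snhg8 was −0.73 (−0.90 to −0.56), and relative to genes of like GC content it was −0.96. A lower ratio was found for 299 of all genes tested (2.67%) and for 15 of the 218 lncRNA genes. Prss12, a coding gene 955 bases away on the opposite strand, was also lower, at 1.61 and 2.49 FPKM (−0.42).

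By count, none of the 8 RNAs was at least 2-fold higher and none was at least 2-fold lower on the FPKM + 1 scale, where 3.14% and 1.03% of the 11213 genes were. On plain FPKM 1 of the 8, Neat1, was at least 2-fold lower against 1.85% of all genes, and none was at least 2-fold higher against 6.59%. At a limit of 1.5-fold on the FPKM + 1 scale, Neat1 and Snhg8 were lower against 4.91% of all genes, and no member was higher against 13.3%. Of the lncRNA genes alone, 4.13% were at least 2-fold higher and 2.75% at least 2-fold lower on the FPKM + 1 scale. The median log2 ratio of the 8 was 0.20 on FPKM + 1, beside 0.14 over all genes and 0.07 over lncRNA genes, with 6 of the 8 higher and 2 lower beside 7079 higher and 4115 lower of all 11213. With the GC trend removed this median was −0.15. The small positive ratios of Gas5, Snhg1 and Snhg3 turned sign under that setting alone, while Neat1 and Snhg8 were lower and Malat1 and Snhg6 higher under all 8 alternative settings.

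**Figure D2:**
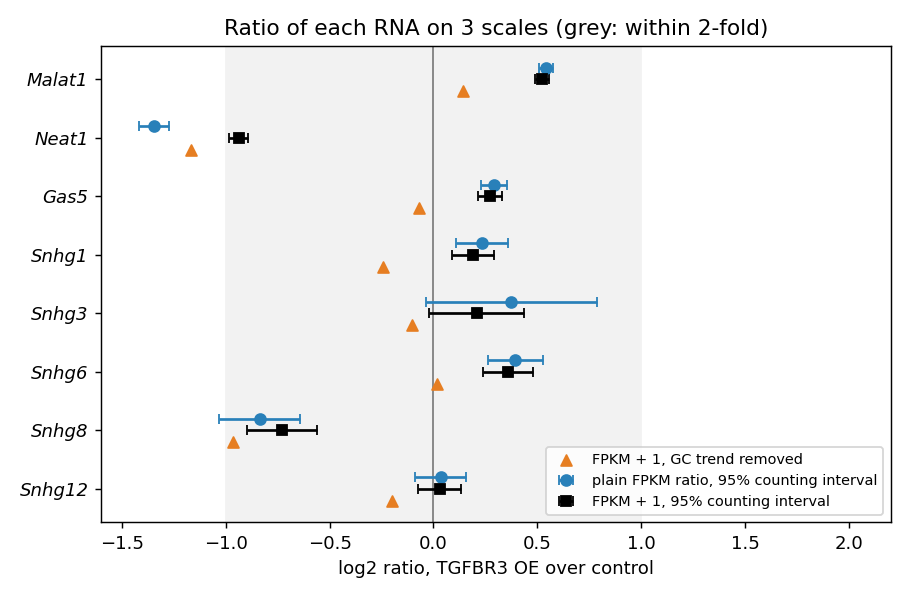
Log2 ratio of each RNA, library labelled TGFBR3 OE over library labelled control, as plain FPKM ratio (blue circles) and on FPKM + 1 (black squares), both with 95% counting intervals, and on FPKM + 1 with the GC trend removed (orange triangles, no interval); the grey band is within 2-fold. Neat1 (−1.35, −0.94 and −1.17) and Snhg8 (−0.84, −0.73 and −0.96) lie left of 0 on all 3 scales, and Gas5, Snhg1, Snhg3 and Snhg12 change side with the GC trend.

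**Figure D3:**
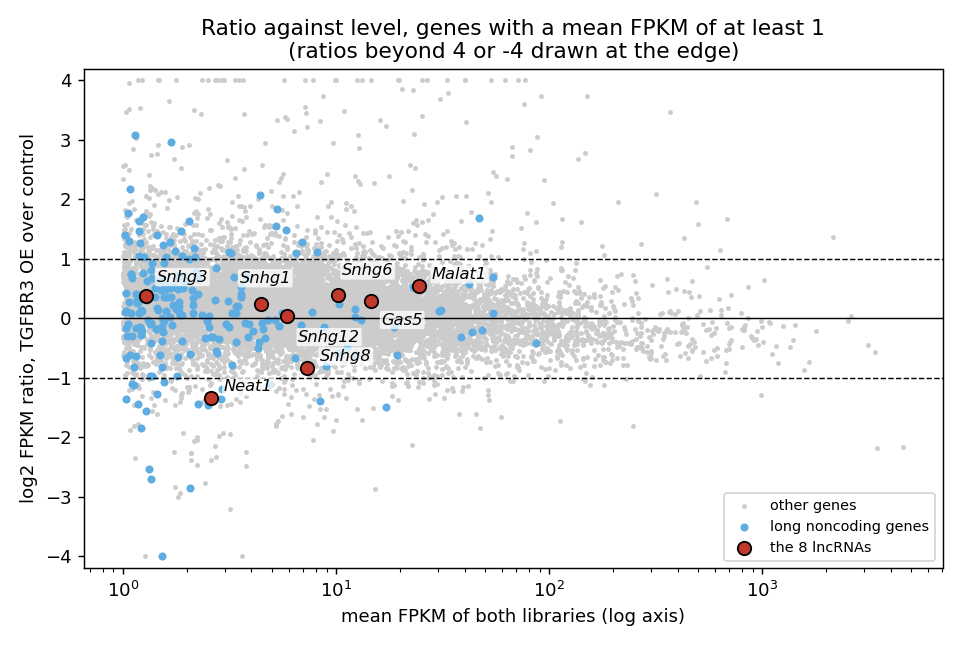
Log2 ratio of plain FPKM (vertical axis) against mean FPKM of both libraries (horizontal log axis) for genes with a mean of at least 1 FPKM, with lncRNA genes in light blue and the 8 RNAs in red; dashed lines mark 2-fold. Neat1 lies below the lower line at −1.35, Snhg8 lies just above it at −0.84, and the other 6 lie within the bulk of the genes between 0.03 and 0.54.

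Other lncRNAs of both kinds were read from lists of known genes. Of 14 further snoRNA host lncRNAs, which the tables hold as 15 gene records, 8 passed a mean of 1 FPKM, of which 6 were higher and 2 lower, with a median log2 ratio of 0.19 on FPKM + 1 and of −0.04 once the GC trend was removed. Snhg18 was the single one past 2-fold, at 4.64 FPKM (468 counts) against 12.09 FPKM (1661 counts) and a log2 ratio of −1.21. Epb41l4aos was lower by a similar size to Snhg8, at 6.49 and 11.34 FPKM (−0.72), while Snhg15 (0.41) and Snhg17 (0.35) were higher. Of the other 11 lncRNAs known as nuclear, 4 passed the level, namely Tug1 (0.54) and Pvt1 (0.46), which were higher, and the imprinted Rian (−0.30) and Meg3 (−0.23), which were lower. None of these 4 differed as much as Neat1. Host genes taken from the annotation in place of a list gave medians on FPKM + 1 close to that of all genes. The 202 protein coding genes with a snoRNA in an intron and a mean of at least 1 FPKM had a median log2 ratio of 0.17. Of these, 137 were higher and 64 lower, with 3 past 2-fold higher and none past 2-fold lower. Of 13 such lncRNA genes, with the 6 hosts above left out, 7 were higher and 6 lower, 1 of them past 2-fold. Their median was 0.13, and −0.16 once the GC trend was removed.

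The proteins that work with these RNAs were mostly within 2-fold. All 15 listed paraspeckle proteins, the partners of Neat1, were expressed, and 11 were higher and 4 lower with a median log2 ratio of 0.14 on FPKM + 1, the same as over all genes, and of −0.24 once the GC trend was removed. Sfpq, which binds the length of Neat1, read 19.75 and 16.77 FPKM (0.22), Tardbp read 13.57 and 10.56 FPKM (0.33), and the largest ratio was that of Ewsr1 (0.57). No gene of the list was past 2-fold in either direction. Of 18 nuclear speckle proteins and SR protein kinases, which share their compartment with Malat1, 17 were higher and 1, Srsf2, was lower, with a median of 0.44 and of 0.12 once the GC trend was removed. The speckle genes with the largest ratios were Srrm1 (0.84), a splicing coactivator, Clk4 (0.81), a kinase of SR proteins, Pnn (0.74) and Sf3b1 (0.70).

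All 4 core proteins of box C/D snoRNPs, the particles around snoRNAs such as Snord47, were higher with a median log2 ratio of 0.41, and of 0.19 once the GC trend was removed. Nop56 read 19.40 and 10.19 FPKM (0.87), Nop58 read 3.10 and 1.72 FPKM (0.59), and the methyltransferase Fbl read 13.20 and 11.19 FPKM (0.22). Snu13 had a ratio of 0.07, which turned to −0.27 with the GC trend removed and lies below the shift of 0.13 that centring takes off. The 4 core proteins of box H/ACA snoRNPs had a median of 0.05, also below that shift, with Dkc1, the pseudouridine synthase, at 0.41 and Nop10 at −0.44. Of 10 snoRNP assembly factors 9 were higher, with a median of 0.30, led by Nufip1 (0.92), Znhit6 (0.59) and Nolc1 (0.55), while Pih1d1 was lower (−0.39). No gene of these 3 lists was past 2-fold on the FPKM + 1 scale.

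Nonsense-mediated decay, the pathway that removes many spliced host RNAs, was read from 19 of its factors and from mRNAs known as its substrates. Of the factors 16 were higher and 3 lower, with a median log2 ratio of 0.18 and none past 2-fold on FPKM + 1. Smg1, the kinase of the pathway, read 4.17 and 1.63 FPKM (0.98), Upf3b read 2.06 and 0.70 FPKM (0.85), and Upf2 had a ratio of 0.56. On plain FPKM Smg1 (1.36) and Upf3b (1.56) were past 2-fold. Of 5 stress mRNAs known as substrates, 4 passed the level and were higher with a median of 0.80, led by Ddit3, a stress transcription factor, at 115.95 and 17.52 FPKM (2.66), and Gadd45a at 26.78 and 12.45 FPKM (1.05). Gadd45b had a ratio of 0.55. Atf4 had a ratio of 0.02, which lies below the shift of 0.13 that centring takes off, so it was level in both libraries. The decay of the host RNAs themselves was not measured.

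The mRNAs known for a TOP start were read from a list of 15 genes outside the ribosomal proteins. The starts of these 15 were not searched, so a start shared with Gas5 and Snhg8 was not tested. Of the 15 genes 11 were lower and 4 higher, with a median log2 ratio of −0.27 and none past 2-fold. Eif3f (−0.62) and Eef1b2 (−0.61) were the lowest, and the translation initiation subunit Eif3e (0.74) and the nucleolar protein Npm1 (0.73) were the highest. Gas5 (0.27) thus lay above the median of this list and Snhg8 (−0.73) below its lowest gene.

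**Figure D4:**
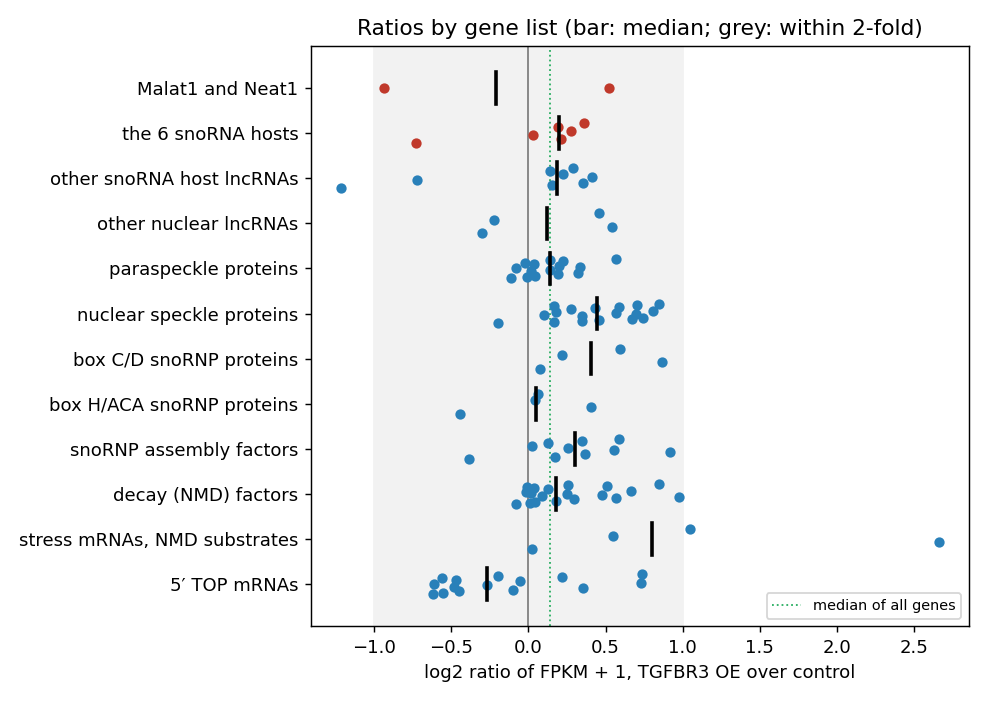
Log2 ratio on FPKM + 1, library labelled TGFBR3 OE over library labelled control, for each gene with a mean of at least 1 FPKM (points) by gene list, with the 8 lncRNAs in red, a black bar at the median of each list, a dotted line at the median of all genes (0.14) and the grey band within 2-fold. Speckle proteins (median 0.44) and box C/D proteins (0.41) lie mostly right of the dotted line, paraspeckle proteins lie around it (0.14), and TOP mRNAs lie mostly left of it (−0.27).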

How the data were processed

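RNA-seq libraries of mouse FAPs, 1 labelled TGFBR3 OE and 1 labelled control, were read from 1 gene table each. The authors deposited FPKM values with 2 decimals and an estimated count per gene. The submitters' processing notes name cutadapt 1.9, HISAT2 2.2.1, StringTie 2.1.6, DESeq2, edgeR and mm10, whereas the methods of the study name STAR and FeatureCounts, so the source of the counts is not settled. The deposited counts are whole numbers, but for 1023 of 1026 and 872 of 872 low genes they lay 0 to 1 above the fractional count implied by FPKM and exon length, which is how rounding up looks, and a count of 1 can stand for almost none. FPKM matched count over merged exon length over 1 total within 1% for 98.8% and 98.9% of genes. The methods of the study name a stranded mRNA library kit. Whether a count is a read or a read pair, whether molecular identifiers were used, and whether counting used strand are not given in the sources used here. No count model was run, since it needs replicates.

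The measure was the log2 ratio of FPKM + 1 (pseudocount 1), beside the plain FPKM ratio, for genes whose FPKM averaged 1 or more. Intervals are exact Clopper-Pearson intervals of how a gene's counts divide between the libraries, or exact Poisson intervals of a level, at 95%, for counting error only. They take each deposited count as an independent unit, and would be too narrow where counts were not. GC and length trends were removed as medians of 20 bins. GENCODE M21 held 99.7% of the gene identifiers and gave positions, exons and snoRNAs, and RefSeq gave the start windows. The code for ratios, intervals and GC removal was run on simulated counts with known changes, counting error alone and a GC trend. That run checks the code and does not test the values of these 2 libraries. Python 3.11.15, numpy 2.4.6, pandas 2.3.3, scipy 1.17.1 and matplotlib 3.10.9 were used. Named were all 8 lncRNAs, their snoRNAs, overlapping and nearest genes, Tgfbr3, and of each list up to 4 genes with the largest ratio in either direction. Srsf2 and Dcn were named after their values were seen, and some genes that the rule names are not reported here. The 8 lncRNAs and the gene lists were chosen with earlier results of these data known. Mitochondrial genes took 0.912% and 1.04%. Alternatives were other pseudocounts, CPM, rescaling, centring, GC and length trends, filters and a 1.5-fold limit.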

Additional observations from a re-analysis of the deposited data

How the results depend on the processing

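No paired analysis was possible because there is 1 library per condition and the labels give no replicate numbers, and for the same reason no library could be left out. The number of the 8 RNAs at least 2-fold higher was 0 under every alternative run. The number at least 2-fold lower was 0 on FPKM + 1 and in both rescalings of FPKM, 1 (Neat1) with no pseudocount, with a pseudocount of 0.1, with CPM, with centring, with the GC trend removed and with the length trend removed, and 2 (Neat1 and Snhg8) at 1.5-fold. The median of the 8 was 0.20 and turned to −0.15 with the GC trend removed. Over all genes, 352 were at least 2-fold higher and 116 lower, which became 739 and 207 with no pseudocount, 645 and 192 with a pseudocount of 0.1, 1488 and 550 at 1.5-fold, and 268 and 183 with centring. The share of higher genes among those past 2-fold was thus 75.2% and fell to 59.4% with centring and 64.6% with the GC trend removed. The log2 ratio of Neat1 ranged from −1.35 to −0.89, that of Snhg8 from −0.96 to −0.67 and that of Malat1 from 0.14 to 0.59 over 8 alternatives. The sign of Gas5 (−0.07), Snhg1 (−0.24) and Snhg3 (−0.11) turned with the GC trend removed, and that of Snhg12 with it (−0.20) and with centring (−0.10). The cause of these shifts was not tested. With 99 and 104 counts, the depth of Snhg3 leaves its direction undetermined.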

Other observations

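Other lncRNAs lay further out than any of the 8, and the following were chosen after their values were seen. Dio3os, transcribed from the imprinted Dio3 region, read 0.09 FPKM (11 counts) in the library labelled TGFBR3 overexpression, against 2.96 FPKM (462 counts) in the library labelled control. Gm20633 read 0.50 and 3.62 FPKM, Gm15270 read 0.36 and 2.34 FPKM, and the more abundant Gm20427 read 9.02 and 25.22 FPKM. In the other direction Gm41724 had 2648 and 1117 counts, AU020206 had 1776 and 678 counts, Gm15640 read 7.09 and 1.68 FPKM, and Gm31522 read 2.97 and 0.38 FPKM. Each of these 8 rests on 1 library per condition, as do the values of the 8 RNAs above.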
